A study of Mus musculus with 5 samples.

Results

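The growth hormone, IGF and IGF-binding protein genes of the liver were followed here: Ghr, Igf1, Igfals, Igfbp1, Igfbp2, Igfbp3, Igfbp4, Igfbp7, Socs2 and Socs3. Their probes were taken by accession, without version, which gave 10 of the 19752 genes named on the array and 17 of its 55681 distinct probes. Livers of mice labelled Fra-1hep, for overexpression of the AP-1 subunit Fra-1 in hepatocytes on a C57BL/6J background, were compared with livers of C57BL/6J wild type mice. All animals were 26 to 28 weeks old and had received a high-fat diet, with 45% of its energy from fat, since 4 weeks of age. RNA of 4 Fra-1hep mice was labelled with Cy5 and hybridised, 1 mouse per array, against a Cy3-labelled pool of 5 wild type mice. On the remaining array the dyes were swapped, with a Fra-1hep pool in Cy3 and the wild type pool in Cy5. Which mice entered the Fra-1hep pool, the promoter that drives Fra-1 and the sex of the animals are not given in the sources used here.

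Growth hormone from the pituitary binds its receptor on hepatocytes, where the kinase JAK2 phosphorylates STAT5, and STAT5 raises transcription of Igf1, Igfals and the feedback inhibitors Socs2 and Cish. IGF-1 leaves the liver and circulates mostly in a complex with IGFBP-3 and the acid-labile subunit, the product of Igfals. The smaller binding proteins IGFBP-1, IGFBP-2 and IGFBP-4 carry IGFs outside that complex, and Igfbp1 is best known as a gene that insulin represses through FOXO1.

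Fosl1, which encodes Fra-1, had 1 probe, with log2 ratios of -0.37, -0.23, 0.11 and 0.12 in mice 1 to 4 and -0.09 on the dye-swap array. Its signal was above background on 0 arrays in the Fra-1hep channel and on 1 in the control channel, with a mean log2 signal of 6.18 in the Fra-1hep channel and 6.27 in the control channel. This probe therefore did not show the overexpression that the labels name, and the files do not say whether it reads the transgene's transcript. Every direction below rests on the labels, and Fra-1hep stands for the samples labelled so. Of all spots, 47.2% to 54.7% were well above background in Cy5 and 47.7% to 61.5% in Cy3. Mouse 1 had the highest share in each dye and was hybridised on a slide of its own, while the other 4 arrays shared a slide. The number of arrays limits the precision of all values.

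The start regions of 9 of the 10 genes were matched in RefSeq promoter windows of the GRCm38.p6 assembly, 13 windows in all, and the 250 bases before each start were searched on both strands. Short elements were looked for as follows. For AP-1, to which Fra-1 belongs, the pattern was TGANTCA, a loose form of its site with any base in the middle. The others were the STAT5 site TTCNNNGAA, the insulin response core CAAAACA and the amino acid response element TGATGNAA. Below are the window of Igfbp1, the gene of the insulin response core, and those of the 3 lower genes with an AP-1 match, written in the direction of transcription with the matched letters in capitals.
Igfbp2 (chr1:72825137-72825386, plus strand): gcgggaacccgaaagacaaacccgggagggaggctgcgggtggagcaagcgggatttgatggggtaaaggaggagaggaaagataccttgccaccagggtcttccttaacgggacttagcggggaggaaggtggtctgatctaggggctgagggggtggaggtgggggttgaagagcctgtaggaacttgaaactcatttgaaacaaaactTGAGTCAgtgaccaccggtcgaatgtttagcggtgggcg
Ghr (chr15:3581843-3582092, minus strand): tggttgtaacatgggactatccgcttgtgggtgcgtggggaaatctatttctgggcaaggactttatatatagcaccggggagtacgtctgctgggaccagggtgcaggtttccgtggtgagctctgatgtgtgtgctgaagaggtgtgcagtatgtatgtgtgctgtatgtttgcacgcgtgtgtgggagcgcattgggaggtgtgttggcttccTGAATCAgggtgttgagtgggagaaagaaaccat
Igf1 (chr10:87860861-87861110, plus strand): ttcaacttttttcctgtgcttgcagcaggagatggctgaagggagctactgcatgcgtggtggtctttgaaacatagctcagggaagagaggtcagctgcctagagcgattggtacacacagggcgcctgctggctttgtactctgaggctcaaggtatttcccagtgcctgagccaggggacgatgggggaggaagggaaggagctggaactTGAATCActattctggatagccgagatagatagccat
Igfbp1 (chr11:7197537-7197786, plus strand): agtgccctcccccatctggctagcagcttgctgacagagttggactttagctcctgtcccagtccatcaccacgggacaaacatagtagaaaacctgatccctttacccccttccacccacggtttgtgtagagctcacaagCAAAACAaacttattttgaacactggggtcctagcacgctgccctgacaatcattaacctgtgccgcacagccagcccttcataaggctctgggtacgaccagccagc
The letters of the loose AP-1 pattern began 39 bases before this start of Igfbp2, 34 before this start of Ghr and 37 before that of Igf1. They read TGAGTCA at Igfbp2 and TGAATCA at Ghr and Igf1. Of 13 member windows 3 held the loose pattern, against 6.75% of all 32851 windows of the same length. A stricter pattern was not counted. The other windows of Igfbp2 and Ghr held none of these elements. The insulin response core lay 108 bases before the start of Igfbp1, and 5.56% of all windows held it. The STAT5 letters stood 236 and 58 bases before 2 of 3 starts of Igfals and 154 bases before that of Socs3, against 7.02% of all windows, and no member window held the amino acid response element (3.45% of all). A match describes these letters alone.

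Igfbp2 was strongly lower in Fra-1hep livers, Ghr, Igf1 and Igfbp3 were moderately lower, and no member was called higher. Values below are log2 ratios of Fra-1hep over control. Fitted changes are limma's genotype coefficient ± its moderated standard error, from 4 mice and the dye-swap array, with a dye term per probe and p-values adjusted by Benjamini-Hochberg over all 28117 tested probes. Because all wild type RNA was pooled, these tests carry no spread among control mice. Their p-values measure only the spread over the 4 mouse arrays, since the dye term leaves the dye-swap array no residual. Of 16 member probes bright enough to be tested, 7 were lower at an adjusted p under 0.05, 0 were higher and 9 did not pass (9 lower and 1 higher by limma at an unadjusted p under 0.05). Of all tested probes 14.4% were lower, 10.6% higher and 25.0% called in either direction. The 16 member probes had a median change of -0.30, beside -0.0016 over all tested probes. Igf1 counts 4 times in that median, Socs2 3 times, and Ghr and Igfbp2 2 times each. At their brightest probes Ghr, Igf1, Igfbp2 and Igfbp3 lay below 0, and Igfals, Igfbp1, Igfbp4, Socs2 and Socs3 above 0. With 1 probe per gene 4 of 9 were lower, against 18.4% of all tested named genes. Both Ghr probes, both Igfbp2 probes, the Igfbp3 probe and 2 of 4 Igf1 probes made up the calls. The 7 called probes lay below 0 on all 5 arrays and 1 other, that of Igfbp4, above 0 on all 5. A single sign on all 5 arrays was found in 34.0% of all tested probes.

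**Figure D1:**
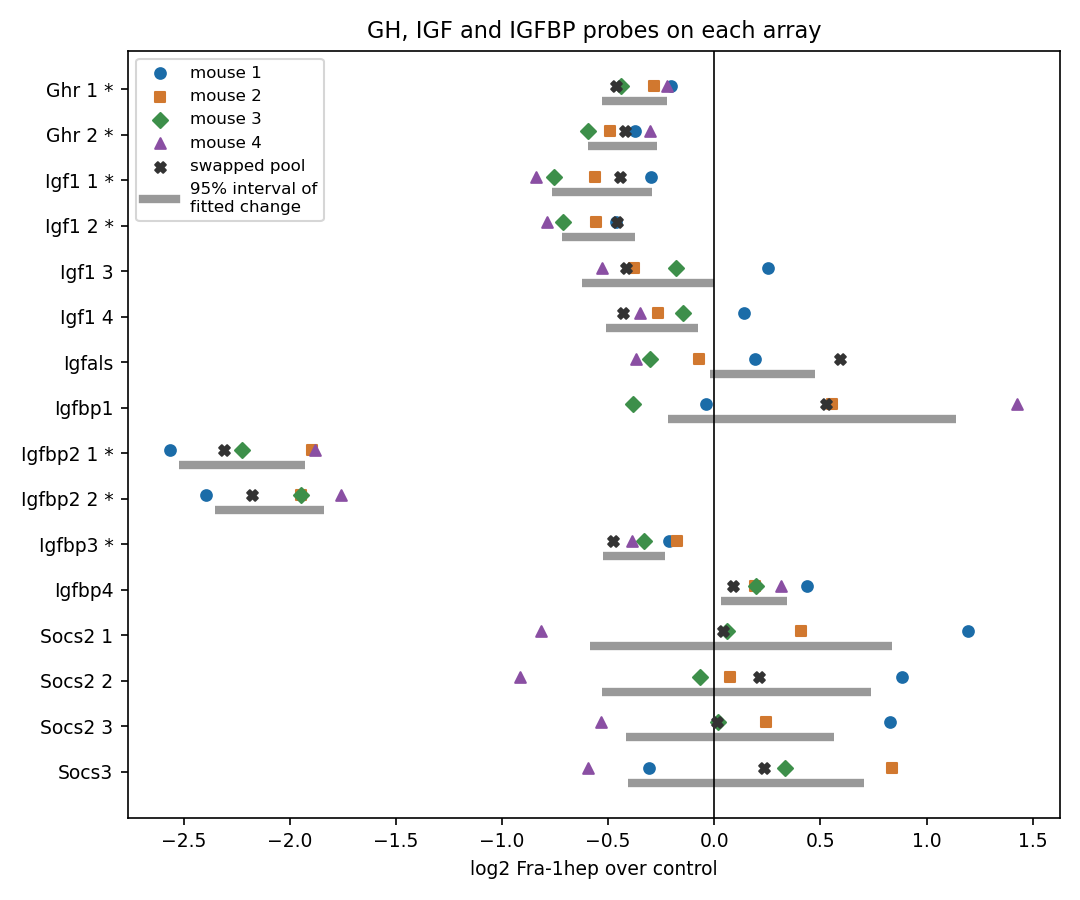
Log2 ratio of Fra-1hep over control (horizontal axis) for each tested probe of the members on each of 5 arrays, with the 95% interval of the fitted change as a grey bar; probes of a gene are numbered from the brightest, and an asterisk marks an adjusted p under 0.05. Igfbp2 probes sit between -2.56 and -1.76 on every array, whereas the Socs2 probes run from -0.92 to 1.19.

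The growth hormone receptor gene itself was lower. Ghr probe A_51_P499854 gave -0.37, -0.49, -0.60 and -0.31 in mice 1 to 4 and -0.42 on the dye-swap array. Its signal, on a linear scale after normalization, was 12141, 12157, 11475 and 13811 in Fra-1hep mice 1 to 4 and 12354 in the Fra-1hep pool, against 15717, 17096, 17354, 17064 and 16534 for the control pool on the same arrays. Every Fra-1hep signal of this probe lay below every control signal. The fitted change was -0.43 ± 0.07 (adjusted p = 0.00526), or 74.2% of control. The other probe, A_55_P2059412, lay between -0.44 and -0.20 in the mice, with -0.46 on the dye-swap array, with a fitted change of -0.38 ± 0.06 (adjusted p = 0.00663). The fitted changes of the 2 probes lay closer together than either standard error.

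Igf1, the main endocrine output of the receptor, was lower at its 2 brightest probes. Probe A_55_P2085984 gave -0.46, -0.56, -0.71 and -0.79 in mice 1 to 4 and -0.46 on the dye-swap array, a fitted change of -0.55 ± 0.07 (adjusted p = 0.00264) or 68.5% of control. Probe A_55_P2031631 gave -0.30, -0.56, -0.76 and -0.84 in the mice and -0.44 on the dye-swap array, a fitted change of -0.53 ± 0.10 (adjusted p = 0.00986). All 5 arrays lay below 0 at these 2 probes, and mouse 1 was nearest to 0 among the mice. The remaining probes were dimmer and had smaller changes: A_55_P2085974 lay at -0.31 ± 0.13 (adjusted p = 0.128) and A_55_P2031636 at -0.29 ± 0.09 (adjusted p = 0.0566). At these, mouse 1 lay above 0 (0.25 and 0.14) and mice 2 to 4 between -0.53 and -0.15. Without mouse 1, which also leaves the arrays of 1 slide, both passed, at -0.39 (adjusted p = 0.0171) and -0.34 (adjusted p = 0.0133). The 4 probes share 1 accession in the array files, and the files do not say where on the transcript each lies.

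Igfals, which encodes the acid-labile subunit, had 0.19, -0.07, -0.30 and -0.37 in mice 1 to 4 and 0.59 on the dye-swap array. The arrays fell on either side of 0, with the dye-swap array above every mouse. The fitted change was 0.23 ± 0.10 (adjusted p = 0.156, 95% interval -0.02 to 0.47), and the mean of the 4 mice alone was -0.14 ± 0.25 (SD, n = 4). The direction thus differed between the mice and the dye-swap array, and the difference between dye orientations, -0.36, did not pass (dye adjusted p = 0.108).

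Igfbp2 had the largest change among the members. IGFBP-2 is a circulating IGF carrier that hepatocytes make and that rises in fasting. Probe A_55_P2056729 had a normalized signal of 836, 1655, 1381 and 1669 in Fra-1hep mice 1 to 4 and 1383 in the Fra-1hep pool, against 4937, 6151, 6466, 6142 and 6850 for the control pool on those arrays. No Fra-1hep signal came near the control range. The log2 ratios were -2.56, -1.89, -2.23 and -1.88 in the mice and -2.31 on the dye-swap array, and the fitted change was -2.22 ± 0.13 (adjusted p = 6.6e-05), 4.67-fold lower. Probe A_66_P135391 gave -2.39, -1.94, -1.94 and -1.76 in the mice and -2.18 on the dye-swap array, with a fitted change of -2.09 ± 0.11 (adjusted p = 4.64e-05), 4.27-fold lower. Probes at least 4-fold lower and past the threshold were 0.178% of all those tested, 50 of 28117. Igfbp5, the neighbouring coding gene of Igfbp2 on chromosome 1, lay at -0.16 ± 0.12 (adjusted p = 0.366). Its sign differed between the mice (mean 0.13) and the dye-swap array (-0.45).

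**Figure D2:**
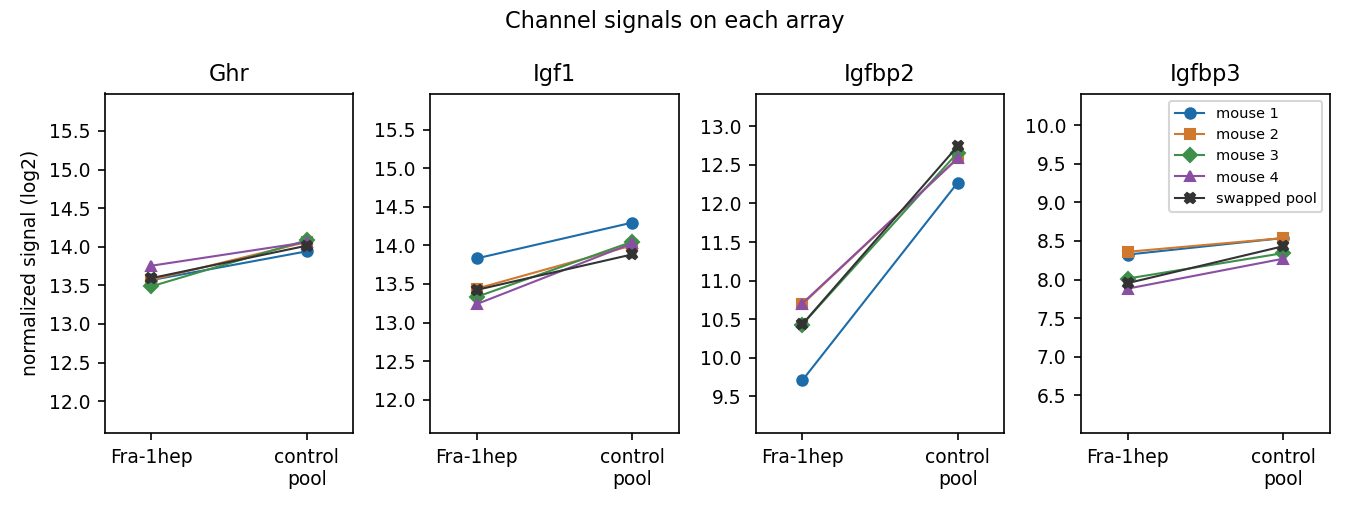
Normalized signal on a log2 scale (vertical axis) in the Fra-1hep and the control pool channel of each array, for 1 probe each of Ghr, Igf1, Igfbp2 and Igfbp3; every panel spans the same number of log2 units and lines join the channels of an array. All lines rise towards the control pool, most steeply for Igfbp2, where the mean log2 signal was 10.39 in the Fra-1hep channel and 12.57 in the control channel.

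Igfbp3, which encodes the main IGF carrier of blood and in rat liver is transcribed mostly outside hepatocytes, gave -0.21, -0.18, -0.33 and -0.39 in mice 1 to 4 and -0.48 on the dye-swap array. All 5 arrays lay below 0, and the fitted change was -0.38 ± 0.06 (adjusted p = 0.00585), or 77.0% of control. In bulk liver, fewer cells of a type and less RNA per cell cannot be told apart. Markers of liver cells other than hepatocytes, each read at its brightest probe, were also lower in part, against 18.4% lower and 12.0% higher among 13551 genes read this way. Among endothelial markers 6 of 10 tested were lower and 0 higher (1 higher by limma at an unadjusted p under 0.05), with list medians from -0.55 to -0.087 over the arrays. Their summed signal ran from 14563 to 20287 in the Fra-1hep channel and from 21169 to 22892 in the control channel. Of macrophage markers 3 of 9 were lower (Itgax, Adgre1 and Cd5l) and 0 higher (also 0 at an unadjusted p under 0.05), with list medians from -0.90 to -0.11 over the arrays. Of those that did not pass, Clec4f, Vsig4 and Timd4 lay at 0.07, 0.05 and 0.13, and Csf1r, Marco and Cx3cr1 below 0. The summed signals of macrophage markers were 23084 to 54970 in the Fra-1hep channel and 48870 to 62174 in the control channel. Of stellate cell and fibroblast markers 8 of 10 were lower and 0 higher (0 at an unadjusted p under 0.05), with 16850 to 22068 in the Fra-1hep channel and 35961 to 45974 in the control channel. Their part in the Igfbp3 result was not tested. Of 9 hepatocyte markers, all well above background, 2 were higher, 0 were lower (0 at an unadjusted p under 0.05) and 7 did not pass. Of the 2, Serpina1a (0.29) averaged 0.81 in the mice and gave -0.22 on the dye-swap array. The hepatocyte list medians were 0.45, 0.49, 0.33 and 0.37 in mice 1 to 4 but -0.23 on the dye-swap array. Ttr, Alb, Apob and Ass1, which did not pass, lay above 0 in every mouse and below 0 on the dye-swap array. For each, the difference between dye orientations passed (dye adjusted p from 0.00088 to 0.0403). Hnf4a, Apoa1 and Cps1 averaged below 0 in the mice (-0.087, -0.15 and -0.039).

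Igfbp7, whose product binds IGFs weakly and is made by endothelial and stellate cells, had 1 probe. It was well above background on 0 arrays in the Fra-1hep channel and on 1 in the control channel, and it was not tested. Its ratios of -0.55, -0.30, -0.10 and -0.09 in the mice and -0.04 on the dye-swap array come from signals near background. Igfbp4, which encodes a binding protein that restrains IGF action, gave 0.44, 0.19, 0.20 and 0.32 in mice 1 to 4 and 0.09 on the dye-swap array. All arrays lay above 0, and the fitted change of 0.19 ± 0.07 did not pass (adjusted p = 0.0798, 95% interval 0.03 to 0.34). It passed without the dye-swap array (0.29, adjusted p = 0.00978) and when the dye term was dropped (0.25, adjusted p = 0.0224).

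Igfbp1, Socs2 and Socs3 varied among the 4 Fra-1hep mice, with SDs larger than their fitted changes, and none passed the test. Igfbp1 gave -0.04, 0.55, -0.38 and 1.43 in mice 1 to 4 and 0.53 on the dye-swap array. Its normalized signal was 4877, 9227, 4622 and 16018 in the Fra-1hep mice and 8375 in the Fra-1hep pool, against 5010, 6286, 6031, 5955 and 5808 for the control pool. Mouse 4 stood highest and mice 1 and 3 lay below the control pool. The fitted change was 0.46 ± 0.29 (adjusted p = 0.286, 95% interval -0.22 to 1.14), while Igfbp3, its neighbouring coding gene on chromosome 11, had an SD of 0.098 over the mice where Igfbp1 had 0.79.

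Socs2 encodes a STAT5-induced protein that marks the growth hormone receptor for degradation. Its brightest probe, A_51_P107362, gave 1.19, 0.41, 0.06 and -0.82 in mice 1 to 4 and 0.04 on the dye-swap array. The normalized signal there was 574, 363, 289 and 153 in the mice and 306 in the Fra-1hep pool, against 251, 273, 277, 269 and 298 for the control pool. Mouse 1 was highest and mouse 4 lowest at all 3 probes, which gave 0.89 and -0.92 in those mice at A_55_P1992834 and 0.83 and -0.53 at A_55_P1992838. No probe passed: fitted changes were 0.13 ± 0.30, 0.10 ± 0.27 and 0.08 ± 0.21 (adjusted p = 0.798, 0.813 and 0.825). The 95% interval at the brightest probe, -0.59 to 0.84, does not show that the genotypes were alike. Socs3, a brake on IL-6 and STAT3 signalling, gave -0.31, 0.84, 0.33 and -0.60 in the mice and 0.23 on the dye-swap array, with a fitted change of 0.15 ± 0.24 (adjusted p = 0.687, 95% interval -0.41 to 0.70). Here mouse 2 was highest and mouse 4 lowest.

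Among all tested probes the median SD over the 4 mice was 0.116. The SDs of Igfbp1 (0.79), the Socs2 probes (0.83, 0.74 and 0.56) and Socs3 (0.64) stood at percentiles 99.0 to 99.6 of that distribution. Other members also varied, called ones included: the Igfbp2 probes (0.32 and 0.27) stood at percentiles 95.7 and 93.0, the Igf1 probes (0.15 to 0.34) at 66.7 to 96.4, and Igfals (0.25) at 91.8. The SDs of Ghr (0.107 and 0.129), Igfbp3 and Igfbp4 (0.114) stood at percentiles 38.1 to 57.8. The control pool is the same RNA on every array. Its channel varied less than the Fra-1hep channel at all tested member probes other than Ghr A_55_P2059412, with an SD of log2 signal of 0.126 in the Fra-1hep channel and 0.142 in the control channel, and Igf1 A_55_P2031636, with 0.086 in the Fra-1hep channel and 0.232 in the control channel. At the brightest Socs2 probe this SD over the 4 mouse arrays was 0.79 in the Fra-1hep channel and 0.064 in the control channel. It was 0.85 in the Fra-1hep channel and 0.145 in the control channel for Igfbp1, and 0.70 in the Fra-1hep channel and 0.066 in the control channel for Socs3.

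**Figure D3:**
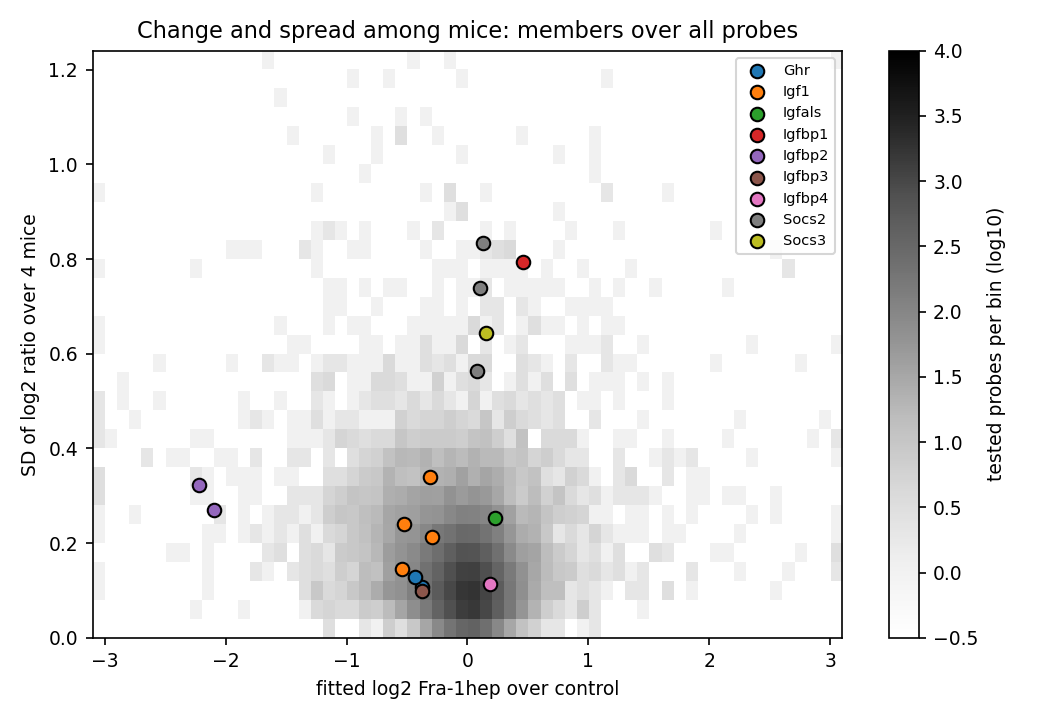
Fitted log2 change of Fra-1hep over control (horizontal axis) against the SD of the log2 ratio over 4 mice (vertical axis), with all 28117 tested probes as grey bins shaded by log10 number (edge bins also hold values beyond the axes) and the 16 member probes as coloured points. Igfbp2 lies far to the left at SDs of 0.32 and 0.27, while Igfbp1, at a fitted change of 0.46, and Socs2 and Socs3, at 0.08 to 0.15, have SDs of 0.56 to 0.83 and did not pass.

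Other genes of growth hormone signalling were described from a list of 22, all tested. Of these 6 were lower, 2 higher and 14 did not pass, with a list median of -0.0091, against 30.4% called in either direction among all named genes (median -0.022). The kinase gene Jak2 lay at 0.00 ± 0.07 (adjusted p = 0.975, 95% interval -0.17 to 0.18). Of the transcription factor genes, Stat5a was lower at -0.34 ± 0.07 (adjusted p = 0.0167), and Stat5b lay at 0.13 ± 0.10 (adjusted p = 0.349). Of the 2 higher genes, named after their values were seen, Socs4 lay at 0.25 ± 0.07 and above 0 on all 5 arrays. The other, Sh2b3, lay at 0.30 ± 0.06 through the dye-swap array (0.65), while the mice gave -0.16, 0.09, -0.08 and -0.05. The mean of the mice alone was -0.05, on the other side of 0, and the difference between dye orientations passed (dye adjusted p = 0.0313). Without the dye-swap array 4 genes of this list were higher. The call of Stat5a ended with Agilent's processed signals (adjusted p = 0.0621), the deposited values (0.0618) or an assumed spread of control mice added (0.0613). Stat5b passed at its brightest probe without the dye-swap array (0.33, adjusted p = 0.023). A dimmer Stat5b probe also lay at 0.13 (adjusted p = 0.274), but there the mice averaged -0.011. The lowest p-values among the calls were those of Sirpa, a SHP-2-binding membrane receptor that macrophages carry (-1.003 ± 0.12), Socs1 (-0.45 ± 0.05), Ptpn11, which encodes SHP-2 (-0.29 ± 0.05), and Stat3 (-0.37 ± 0.07). Of macrophage markers 3 of 9 were lower, and the part of macrophage number in the Sirpa result was not tested. For Stat3 a dimmer probe gave -0.24 and did not pass (adjusted p = 0.0944).

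Cish, like Socs2 a STAT5-induced inhibitor, gave 0.14, 0.09, 0.62 and -1.70 in mice 1 to 4 and 0.17 on the dye-swap array. Mouse 4 again had the lowest value, and the SD of 1.02 exceeded that of any member. The fitted change was -0.02 ± 0.37 (adjusted p = 0.974, 95% interval -0.89 to 0.84).

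**Figure D4:**
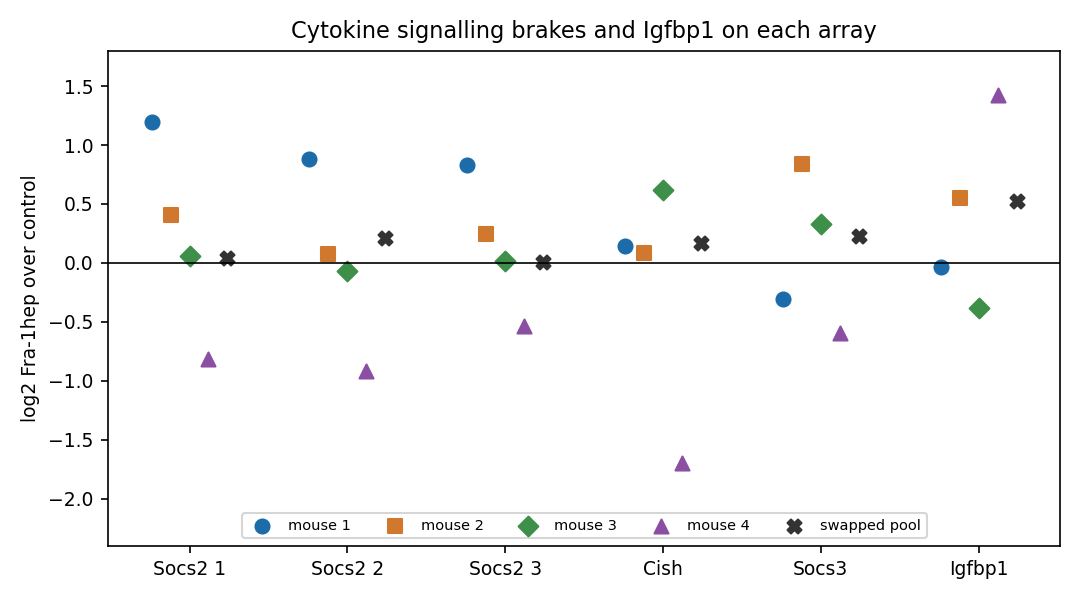
Log2 ratio of Fra-1hep over control (vertical axis) on each array for the 3 Socs2 probes (numbered from the brightest), Cish, Socs3 and Igfbp1. Mouse 4 is the lowest array at Socs2, Cish and Socs3 and the highest at Igfbp1 (1.43), and the dye-swap array lies between the mice in every column.

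Of 17 genes of IGF ligands, receptors, signal adaptors and proteases, 11 were bright enough to test. Only Grb14, which encodes an adaptor that inhibits the insulin receptor, was lower (-0.34 ± 0.07, adjusted p = 0.0146), and 0 were higher (also 0 by limma at an unadjusted p under 0.05), with a list median of -0.089. The shares over all tested named genes were 18.4% lower and 12.0% higher. Grb14 did not pass with processed signals (adjusted p = 0.0539), the deposited values (0.0537) or an assumed spread of control mice added (0.0551). The receptor genes Igf1r (-0.15 ± 0.06, adjusted p = 0.117), Igf2r (-0.02 ± 0.06) and Insr (0.04 ± 0.06) did not pass, nor did the insulin receptor substrates Irs1 (-0.11 ± 0.07) and Irs2 (0.21 ± 0.11). Without the dye-swap array Igf1r passed at -0.30 (adjusted p = 0.00649), Irs2 at 0.40 (0.0187) and Igf2r, in the opposite direction, at 0.23 (0.014). That fit called 3 genes of the list lower and 2 higher. Without mouse 1 the list had 2 lower genes. Igf2 was among the 6 genes too dim to test.

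Of 13 tested genes of insulin and FOXO1 signalling, the input best known to set Igfbp1, 2 were lower, 3 were higher and 8 did not pass, with a median of -0.026. Among all tested named genes 18.4% were lower and 12.0% higher. Foxo1 lay at -0.03 ± 0.07 (adjusted p = 0.8289). The coactivator gene Ppargc1a (-0.65 ± 0.08) and the PI3-kinase subunit gene Pik3r1 (-0.52 ± 0.08) were lower, and G6pc, of glucose release (0.66 ± 0.12), and Pdk1, a pyruvate dehydrogenase kinase gene (0.52 ± 0.12), were higher. Ppargc1a A_51_P279038 gave -0.49, -0.13, -0.25 and -0.23 in the mice but -1.03 on the dye-swap array, a difference between dye orientations that passed (dye adjusted p = 0.0414). Its value without that array was -0.27 (adjusted p = 0.0193). A dimmer Ppargc1a probe lay at -0.03 and did not pass, and Pdk1 did not pass once an assumed spread of control mice was added (adjusted p = 0.0758). Of 10 tested genes of IL-6 family and STAT3 signalling, upstream of Socs3, 3 were lower, 2 higher and 5 did not pass, with a median of -0.11, and 6 were lower without the dye-swap array. The lower genes Ptpn11 and Stat3 also belong to the growth hormone signalling list and are counted in both. The oncostatin M receptor gene Osmr was lower (-0.48 ± 0.07), and the receptor genes Lifr (0.74 ± 0.13) and Il6ra (0.52 ± 0.11, adjusted p = 0.0127) were higher. Lifr's dimmer probes gave 0.14 and -0.10 and did not pass, and Il6ra did not pass with processed signals (adjusted p = 0.0521) or the deposited values (0.0519).

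The timing of growth hormone pulses sets which liver genes are male- or female-biased in mice, so both kinds were listed. Xist, the female X inactivation transcript, was detected above background on 1 and 0 arrays in the Fra-1hep channel and likewise on 1 and 0 in the control channel at its 2 probes, while the Y-linked Ddx3y and Eif2s3y were detected in each channel of all 5 arrays. Other Y-linked genes were weaker: Kdm5d was detected on 1 array in the Fra-1hep channel and 2 in the control channel, and the Uty probes on 1 and 4 in the Fra-1hep channel and 1 and 3 in the control channel. For both lists the shares over all tested named genes were 18.4% lower and 12.0% higher. Of 19 tested male-biased genes 6 were lower, 3 higher and 10 did not pass, with a median of -0.083. The major urinary protein genes Mup3 (-1.95 ± 0.15) and Mup21 (-1.75 ± 0.17), the elongase gene Elovl3 (-1.74 ± 0.18) and Ugt2b38 (-0.59 ± 0.06) were lower. The 3 higher genes, named after their values were seen, were C6 (1.27 ± 0.14), Gstp1 (1.11 ± 0.22) and Cyp2u1 (0.33 ± 0.07). Of 14 tested female-biased genes 6 were lower, 2 higher and 6 did not pass, with a median of -0.13, and without mouse 3 only 1 was higher. Among them Cyp3a16 (-2.76 ± 0.17), Tox (-1.32 ± 0.12) and Cyp2b9 (-1.04 ± 0.17) were lower and Cyp2a4 was higher (0.56 ± 0.10). Mup and Cyp genes resemble their relatives, so each of these probes may also read related transcripts, which leaves the values of single genes uncertain. The mice differed: the male-biased list had array medians of -0.083, -0.18, -0.60 and 0.19 in mice 1 to 4 and 0.048 on the dye-swap array, and the female-biased list had -0.33, -0.18, 0.44 and -0.77 in the mice and -0.21 on the dye-swap array. Mouse 3 thus had the lowest male-biased and the highest female-biased median, and mouse 4 the reverse.

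**Figure D5:**
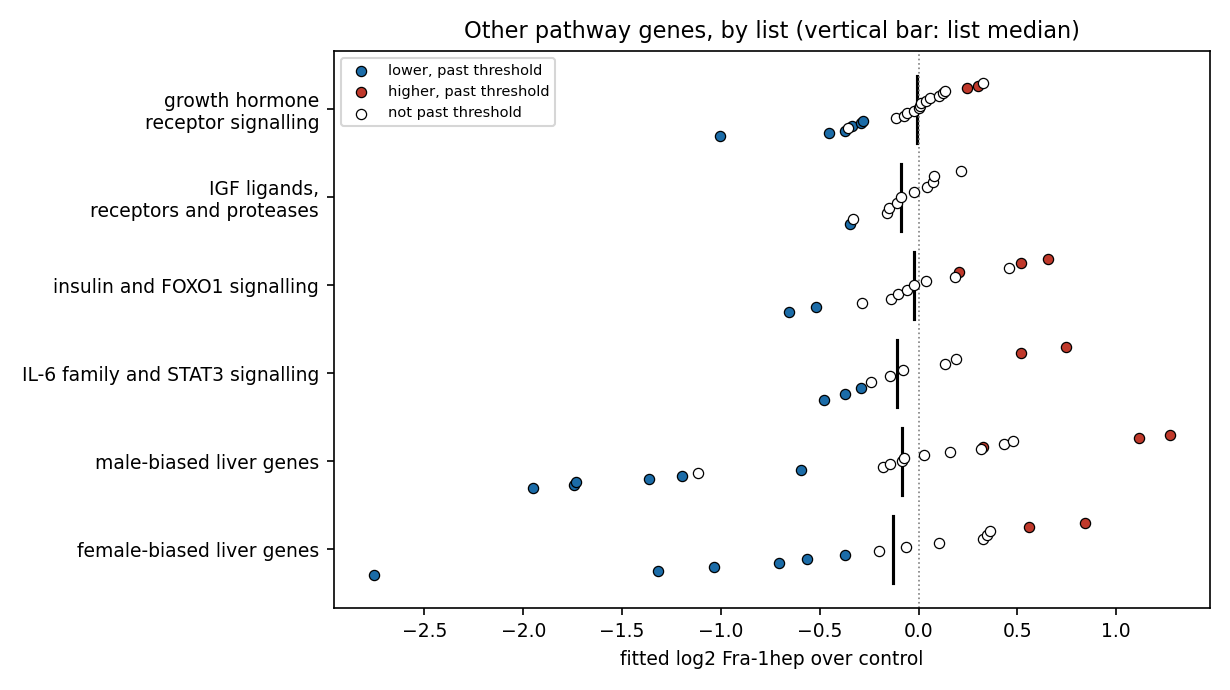
Fitted log2 change of Fra-1hep over control (horizontal axis) of each tested gene in 6 lists, each gene by its brightest probe, with blue for lower and red for higher at an adjusted p under 0.05, white for genes that did not pass, and a vertical bar at each list's median. List medians lie between -0.13 and -0.0091, and the widest ranges are those of the male-biased and female-biased lists.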

How the data were processed

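Liver RNA of 4 Fra-1hep mice and 1 dye-swapped pair of pools was measured on 5 Agilent 2-colour arrays of 62976 spots. The authors quantified spot intensity with Agilent Feature Extraction (version 10.7 in the submitters' processing notes, 10.7.3.1 per the file headers). Besides median foreground and local background, the deposited scanner files carry Agilent's processed intensity, already corrected for background and dye, and its log10 ratio of both dyes. A series table with log2 ratios was also deposited: against the scanner ratios its slopes were 1.0 for the mice and -1.0 for the dye-swap array, so its sign is Fra-1hep over control throughout, and its column medians of 0.13, 0.084, 0.044, 0.13 and -0.042 show that it was not centred. Further steps behind it are not given in the sources used here. Per the labels' protocols, 100 ng of RNA was labelled, with integrity numbers above 7.8.

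Normexp (offset 50) was applied to the median intensities, followed by loess per array in which control spots and outlier flags had weight 0. The 1116 spots with such flags were left out, 0 spots were saturated, and 56 tested probes lacked 1 array (no member did). Of 55681 probes, 26056 were named through a RefSeq gene table of GRCm38.p6 (19752 genes). A probe was kept where 3 or more arrays had it well above background in Cy3 or Cy5, which left 28117, and each was fitted apart with limma (3.58.1, R 4.3.3; lmFit and eBayes): genotype with opposite signs for the dye orientations, plus a dye intercept. The dye-swap array weighs as much as the 4 mice together, and the spread comes from the mice (3 residual and 4.29 prior degrees of freedom). A dye effect and a deviation of the dye-swap array cannot be told apart. The median standard error was 0.066. Channel signals were taken after loess and Aquantile. List genes are given by their brightest kept probe. The fit was tested on simulated data.

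The members and lists were chosen with earlier results of these data known. Named were all member probes, a set of core pathway genes (Jak2, Stat5a, Stat5b, Cish, Igf2, Igf1r, Igf2r, Insr, Irs1, Irs2, Il6ra, Stat3, Foxo1) and, for each list, up to 4 genes with the smallest p among those called. Alternatives covered the dye term, single arrays, signals, offset, centring, filters, weights, probes per gene, outlier flags and the pool's spread.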

Additional observations from a re-analysis of the deposited data

Results flagged for a closer look

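Among 46 named probes tested, 2 had a mouse far from the other 3, measured by the gap to the nearest mouse against the range of all 4 mice. Chance alone gives about 1 in 20 such cases. Foxo1 (A_51_P138044) had 0.041 in mouse 4, where mice 1 to 3 lay between -0.26 and -0.21. Sirpa (A_55_P2118037) had -0.52 in mouse 2, where the other mice lay between -1.15 and -1.10. No member probe was among them.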

How the results depend on the processing

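All 7 calls among the members kept their direction and passed in each of the 15 or 16 alternatives run for their probe. Over the member probes, 243 of 249 alternative values stayed on the same side of the threshold as reported and 6 newly passed (Igf1 and Igfbp4, given above, and Igf1 A_55_P2031636 also with median centring, adjusted p = 0.0403, and array weights, 0.0358). Lower member probes numbered 7 to 9 with 1 array left out and 4 of 9 with 1 probe per gene, by construction, and higher ones 0 to 1 with 1 array left out and 1 with the dye-swap array turned and no dye term. Of other named genes, 9 of 480 values lost the threshold, 5 gained it and 1 turned, Igf2r, which ran from -0.035 to 0.23 with 1 array left out. Over all probes 7023 passed (2974 higher, 4049 lower), 5307 to 9331 with 1 array left out and 3417 with the spread of 5 control mice added, which enlarges every error by construction. With median centring 1700 were higher and 3576 lower. The ranges with 1 array left out were, for growth hormone signalling, 2 to 4 higher, for the IGF list 0 to 2 higher and 1 to 3 lower, for female-biased genes 1 to 3 higher, and for IL-6 genes 3 to 6 lower. With the dye-swap array turned and no dye term, growth hormone signalling had 1 higher, the IGF list 1 higher and 3 lower, IL-6 genes 5 lower and insulin genes 5 higher. With processed signals, as with the deposited table, the IGF list had 0 lower, female-biased genes 1 higher and 3 lower, and IL-6 genes 1 higher. With the pool's spread added, growth hormone signalling had 0 higher, the IGF list 0 lower, female-biased genes 1 higher and 3 lower, and insulin genes 1 higher. Growth hormone signalling had 0 higher with median centring, female-biased genes 1 higher with an offset of 0, and insulin genes 5 higher with array weights. Where no construction is named, the cause was not tested. A slide block removes mouse 1, so it equals the fit without that mouse. Each ratio already pairs Fra-1hep with control RNA on the same array. Pairing of single animals was not possible because the control RNA was pooled. Dim probes, such as those of Igfbp7 and Igf2, gave no usable change.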

Other observations

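The prolactin receptor gene Prlr, a female-biased gene chosen after its values were seen, gave 0.71, 0.66, 0.995 and -0.87 in mice 1 to 4 and 0.27 on the dye-swap array. Its fitted change was 0.32 ± 0.31 (adjusted p = 0.480), and mouse 4 was the lowest, as at Socs2, Cish and Socs3. Hsd3b5, a male-biased steroid dehydrogenase gene also chosen after its values were seen, gave -0.63, -1.07, -2.54 and -1.17 in mice 1 to 4 and -1.37 on the dye-swap array, with mouse 3 the lowest. Neutrophil markers were higher, with 6 of 7 tested genes called, and list medians of 1.91, 3.50, 1.75 and 2.09 in mice 1 to 4. Mouse 2 also had the highest Socs3, but the other mice did not follow. Mouse 4 had the lowest Socs3 and mouse 3 the lowest neutrophil median. A link between the 2 was not tested. Of other markers, 1 of 6 tested cholangiocyte genes was higher, and 3 of 6 tested T, NK and B cell genes were lower. Of 7 exocrine pancreas genes, Cela2a, Prss2, Cpa1 and Pnlip were too dim to test. The 3 tested ones were higher: Cela1 (3.34), Amy2a5 (0.54) and Ctrb1 (0.29). Of 5 adipocyte genes only Cfd was bright enough to test, and it was lower. Beside these marker counts, 18.4% of all tested named genes were lower and 12.0% higher.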
